A study of Rattus norvegicus with 5 samples.

Results

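Solute carriers are membrane proteins that move ions, metals, sugars, vitamins, nucleotides and organic acids across the plasma membrane and the membranes of organelles. The members described here are the probes whose gene symbol in the platform annotation names a carrier of an SLC or SLCO family, leaving out the amino acid families Slc1, Slc3, Slc7 and Slc38, the mitochondrial family Slc25 and the glucose transporter gene Slc2a1, and asking for a detection p under 0.01 on at least 1 array. A total of 123 probes for 123 genes met this rule, among 10793 tested probes of 22517 on the array. Of the 315 probes with a carrier symbol, 70 belonged to the families or the gene left out and 122 were at or below background on every array. Of the 123 members, 85 were above background on all 5 arrays, 28 on 2 to 4 arrays and 10 on 1 array.

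Parotid glands, the largest of the salivary glands, were taken from 5 male Sprague-Dawley rats aged 2 to 3 months. Isoproterenol, an agonist of beta-adrenergic receptors, was injected into the peritoneum of 3 rats, which were killed at 10, 30 or 60 min, with 1 rat at each time; 2 control rats received saline. The dose is labelled as 20 mg per g body weight, a size that puts the unit itself in question. Neither the delay from saline to death in the controls nor the hour of day is stated in the labels, so an effect of the drug cannot be told apart from handling or from a difference between rats. Each time rests on a single rat, and limma takes the spread for it from the pair of controls, moderated by a prior from all tested probes.

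In a salivary acinus, carriers in the basolateral membrane load chloride and bicarbonate into the cell, channels let the anions out at the apical membrane, and sodium and water follow into the lumen. Duct cells then reabsorb sodium and chloride and secrete potassium and bicarbonate. Beta-adrenergic stimulation raises cAMP in acinar cells and drives the release of protein stored in granules, a pathway that itself needs carriers in the Golgi and in vesicles for zinc, nucleotide sugars, sulfate donor and ATP. Changes were measured in RNA; the activity of the carriers was not measured.

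All calls by the test among the carriers came at 60 min. Of the 123 members, 22 were higher and 10 were lower at 60 min than the control mean (limma, Benjamini-Hochberg over all tested probes, adjusted p between 0.0281 and 0.0456). With no filter on dim probes, 0 of these calls remained and 0 of 22517 probes passed. The rises ran from 0.92 to 3.18 on the log2 scale and the 6 falls to a level above background from -0.84 to -1.53, with 4 more falls known only as bounds; standard errors of the 32 differences were 0.20 to 0.43. Carriers of lactate, phosphate, choline, magnesium, proline and organic anions stood among the largest rises. In the Slc30 zinc family, 3 of 4 members rose. The carriers that fell included an organic anion carrier, the insulin-responsive glucose transporter and the iron exporter. Over all tested probes, 13% were higher and 11.4% lower at that time, beside 17.9% higher and 8.13% lower among the members; the difference in shares was not tested. The median over the members was -0.04, with 59 above 0 and 64 below, against -0.08 over all tested probes. The median absolute difference was 0.57 for the members and 0.49 for all tested probes.

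**Figure D1:**
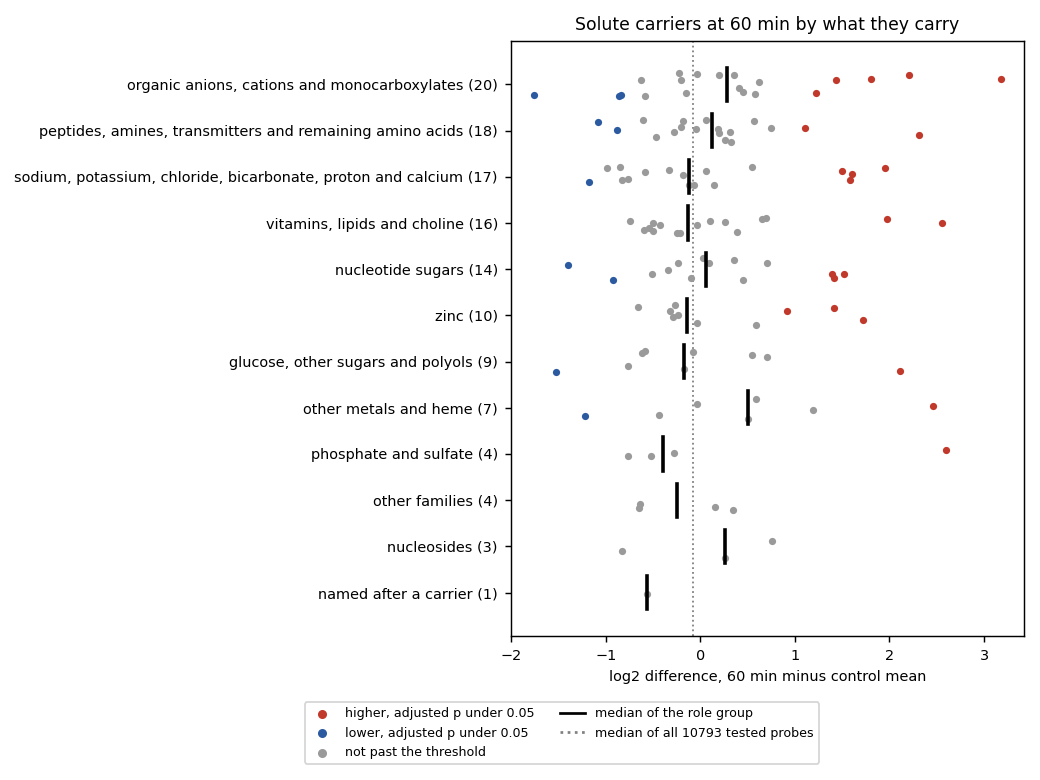
Log2 difference of each of the 123 members at 60 min from the control mean (x axis), in rows by what the carriers move, with the number of members in parentheses; red points rose, blue points fell and grey points did not pass. Black bars are row medians and the dotted line is the median of all 10793 tested probes; most rows hold both positive and negative members, and row medians stay between -0.56 and 0.50.

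Before the members are taken in turn, some arrays stand apart in tissue markers. Summed linear intensity of 13 skeletal muscle markers was 1420, 54400 and 6560 at 10, 30 and 60 min, against 53800 in control 1 and 1390 in control 2. Muscle markers were thus high on 1 control array and on the 30 min array. The 60 min array lay between these and the low arrays, above control 2 and 10 min. The 7 tested fibroblast and endothelial markers summed to 5300, 8130 and 6350 at 10, 30 and 60 min, against 21700 and 20800 in the controls, and all 7 fell at 60 min. Vwf was the only endothelial gene among them, and Col1a2 was the brightest on every array, so the sum mainly reports fibroblast genes. Adipocyte markers (8 tested, 6 lower at 60 min) summed to 3890, 6470 and 2210, against 7920 and 7490, and duct markers (6 tested, 3 lower) to 3140, 1960 and 1690, against 4100 and 3320. Acinar markers (6 tested, 1 higher) summed to 98700, 92400 and 101000, against 95100 and 102000. Acinar signal was thus high on every array, and whether these markers tell parotid from other glands was not tested. In these bulk glands, fewer cells of a type and less RNA per cell cannot be told apart.

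For the genes that moved, the 250 bases before the annotated start are given here for 5 members, because cAMP acts on many genes through the cAMP response element in this window. They are the largest riser (Slc16a1), 2 risers and 1 faller that hold a searched motif, and Slco2b1, a faller with none of them. Sequences are from RefSeq (GRCr8), written 5′ to 3′ on the gene's own strand, with any motif found in capitals.
Slc16a1, chr2:194812410-194812659, plus strand: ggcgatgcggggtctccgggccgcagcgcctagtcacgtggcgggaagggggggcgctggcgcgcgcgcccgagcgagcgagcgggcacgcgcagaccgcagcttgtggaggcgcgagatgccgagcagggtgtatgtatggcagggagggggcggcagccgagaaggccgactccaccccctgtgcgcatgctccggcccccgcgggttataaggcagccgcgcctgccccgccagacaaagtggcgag
Slc30a5, chr2:33709899-33710148, minus strand: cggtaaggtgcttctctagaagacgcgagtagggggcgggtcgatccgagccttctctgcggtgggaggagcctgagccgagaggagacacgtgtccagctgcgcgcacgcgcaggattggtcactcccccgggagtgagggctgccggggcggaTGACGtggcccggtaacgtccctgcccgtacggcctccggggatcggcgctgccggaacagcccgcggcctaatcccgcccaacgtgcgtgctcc
Slco1a5, chr4:176963813-176964062, minus strand: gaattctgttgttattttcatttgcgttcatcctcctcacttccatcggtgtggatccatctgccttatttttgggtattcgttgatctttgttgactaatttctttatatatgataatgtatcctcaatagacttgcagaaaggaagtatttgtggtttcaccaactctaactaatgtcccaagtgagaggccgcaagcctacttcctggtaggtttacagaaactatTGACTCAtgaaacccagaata
Slc22a5, chr10:38536073-38536322, minus strand: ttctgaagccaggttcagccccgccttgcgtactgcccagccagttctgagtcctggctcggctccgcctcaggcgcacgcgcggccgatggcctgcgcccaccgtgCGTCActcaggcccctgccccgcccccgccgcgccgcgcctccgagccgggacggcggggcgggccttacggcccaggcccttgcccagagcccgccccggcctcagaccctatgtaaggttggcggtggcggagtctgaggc
Slco2b1, chr1:163408066-163408315, minus strand: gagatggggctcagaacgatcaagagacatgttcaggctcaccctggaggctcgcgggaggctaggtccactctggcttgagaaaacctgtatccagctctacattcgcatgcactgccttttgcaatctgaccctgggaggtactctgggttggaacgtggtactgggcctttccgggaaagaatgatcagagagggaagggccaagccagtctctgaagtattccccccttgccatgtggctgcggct
The letters searched on both strands were TGACGTCA for the full element, TGACG for its first letters, which lie within the full element, and TGANTCA for the AP-1 site. A promoter was matched by Entrez ID for 101 of the 123 members, including 18 of the 22 risers and 8 of the 10 fallers. Where several starts were listed for a gene, the one listed first was used. The full element was in 0 of 18 risers, 0 of 8 fallers and 1 of 101 members (0.99%), against 1.7% of 27457 promoters. Its first letters were in 3 of 18 risers (16.7%; Slc6a7, Slc8a1 and Slc30a5), in 1 of 8 fallers (12.5%; Slc22a5) and in 19% of all promoters. The AP-1 letters were in 1 riser (5.56%; Slco1a5), starting 21 bases before the start site, in 0 fallers and in 6.36% of all promoters. These shares describe letters in a window and say nothing of binding.

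Among the carriers of sodium, potassium, chloride, bicarbonate, protons and calcium, 4 of 17 members rose at 60 min and 1 fell, with a median of -0.12 (-0.23 without control 1). Slc12a3, the thiazide-sensitive sodium-chloride cotransporter best known from the kidney distal tubule, had log2 intensities of 5.81, 6.11 and 7.11 at 10, 30 and 60 min, against 4.93 and 5.39 in the controls. All 3 isoproterenol arrays lay above both controls, and the 60 min difference was 1.95 ± 0.27 (SE), or 3.87-fold (adjusted p = 0.0281). Slc24a4, a potassium-dependent sodium-calcium exchanger, stood at 8.62, 9.33 and 9.90, against 7.94 and 8.65 in the controls, a rise of 1.60 ± 0.35 at 60 min (3.03-fold, adjusted p = 0.036). Its 10 min value lies within the control range and the later values above it. Slc8a1, the sodium-calcium exchanger of the plasma membrane, stood at 4.78, 5.83 and 6.48, against 4.77 and 5.18, and rose by 1.5 ± 0.26 (adjusted p = 0.029). Slc8b1, the sodium-calcium exchanger of the mitochondrial inner membrane, differed by -0.83 (adjusted p = 0.0644) and did not pass, though it did in 5 other settings.

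The sodium-proton exchangers were divided. Slc9a8, which works in the Golgi and at the apical membrane of epithelia, had 4.69, 5.25 and 6.42 at 10, 30 and 60 min, against 4.5 and 5.18 in the controls, and rose by 1.58 ± 0.34 (3-fold, adjusted p = 0.0347). Slc9a3, the apical exchanger that takes up sodium in kidney, gut and salivary ducts, had 5.60, 5.22 and 4.80, against 6.10 and 5.84. Its 3 isoproterenol values all lie under both controls, and at 60 min the probe was not above background, so the fall is at least 1.82-fold (adjusted p = 0.0306, and 0.0608 with the authors' values, where the call was lost). The summed duct markers, given above, were also lowest at 60 min, as were Krt19, Krt7 and Scnn1a singly. Scnn1b, Scnn1g and Atp6v1b1 were lowest at 30 min. The part of duct cells in the result was not tested. Slc9a2 (0.06, adjusted p = 0.851) and Slc9a5 (adjusted p = 0.0936), which was not above background at 60 min, did not pass. Slc8a1, Slc9a8 and Slc12a3 were above background in only 1 of the 2 controls, so their fold changes lean on values near the floor of the scale, which was 5.03 to 5.11 across arrays.

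Of the carriers in the usual scheme of acinar fluid secretion, Slc4a2, the chloride-bicarbonate exchanger of the basolateral membrane, had 8.75, 8.57 and 8.20, against 9.10 and 8.83 in the controls. Every isoproterenol value lies below both controls, but the 60 min difference of -0.77 ± 0.23 did not pass (adjusted p = 0.0689); it passed in 4 of the other settings, with the lowest adjusted p 0.0405. Slc4a4, the sodium-bicarbonate cotransporter, had 5.23, 4.87 and 5.16, against 5.11 and 4.93, a difference of 0.14 (adjusted p = 0.655) for a probe at the floor. Slc12a2 and Slc26a6, which also belong to that scheme, had no probe under these symbols in the annotation used and were not analysed here. None of the 6 Slc4 members passed. Slc4a1, the anion exchanger of red cells, differed by -0.07 (adjusted p = 0.829). Its probe had 5.23, 5.28 and 5.13, against 5.29 and 5.1, so near the floor that a fall could hardly show. The 6 tested red cell markers summed to 8930, 24200 and 28800 at 10, 30 and 60 min, against 38500 and 34600 in the controls. Slc12a8 differed by -0.18 (adjusted p = 0.552).

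Among 4 members of the phosphate and sulfate families, Slc20a1 rose and the others did not pass. Slc20a1, a sodium-phosphate cotransporter found in most cells, had log2 intensities of 8.01, 9.47 and 10.83 at 10, 30 and 60 min, against 7.94 and 8.53 in the controls. The 10 min value lies between the controls and the later 2 climb above them, for a 60 min difference of 2.60 ± 0.31 (6.05-fold, adjusted p = 0.0281). Its close relative Slc20a2 had 9.57, 9.41 and 9.0, against 9.32 and 9.24, a difference of -0.28 (adjusted p = 0.356). Slc34a2, the sodium-phosphate cotransporter of lung and gut epithelium, differed by -0.52 (adjusted p = 0.17). Slc13a2, which carries citrate and other dicarboxylates, was not above background at 60 min, at least 1.26-fold lower without passing (adjusted p = 0.0771).

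Zinc carriers come in 2 families that work in opposite directions. Most Slc30 proteins move zinc out of the cytosol, into vesicles, the Golgi or the outside, and Slc39 proteins move it into the cytosol. The 2 families together had 10 members, from 22 probes on the array. Their joint median at 60 min was -0.14, and 0.18 with detection on all 5 arrays. Of 4 Slc30 members, 3 rose at 60 min and none fell, with a median of 1.17. Of 6 Slc39 members, none passed in either direction, and their median was -0.28. The difference between the families was not tested. Slc30a2, which loads zinc into secretory vesicles and sends it into milk in the mammary gland, had 8.41, 8.99 and 9.68 at 10, 30 and 60 min, against 7.57 and 8.33 in the controls. All 3 isoproterenol arrays lie above both controls, and the 60 min difference was 1.72 ± 0.36 (3.30-fold, adjusted p = 0.0334).

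Slc30a7 and Slc30a5 bring zinc into the early secretory pathway, where zinc enzymes such as alkaline phosphatase are made. Slc30a7 had 7.01, 7.22 and 8.06, against 6.82 and 6.48 in the controls, and rose by 1.41 ± 0.24 (2.66-fold, adjusted p = 0.0288). Slc30a5 had 8.77, 8.90 and 9.66, against 8.81 and 8.66, just above both controls at 30 min and clear of them at 60 min; it rose by 0.92 ± 0.21 (1.89-fold, adjusted p = 0.0396). Slc30a10, not above background at 60 min, did not pass (adjusted p = 0.905). On the Slc39 side, Slc39a7, which releases zinc from the endoplasmic reticulum, had 12.89, 12.34 and 12.28, against 12.59 and 12.46, a difference of -0.24 (adjusted p = 0.429). Slc39a13, a Golgi zinc carrier, differed by -0.66 (adjusted p = 0.0881) and Slc39a2 by 0.59 (adjusted p = 0.127). The metallothionein gene Mt1, whose protein binds zinc in the cytosol, had 12.47, 12.78 and 13.57, against 12.70 and 12.66, and rose 1.86-fold at 60 min (adjusted p = 0.0393). Mt3 and Mtf1, the other measured zinc-buffering genes, did not pass.

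Of 7 carriers of other metals and heme, Slc41a2 rose and Slc40a1 fell. Slc41a2, a magnesium carrier, had 5.02, 5.47 and 7.53 at 10, 30 and 60 min, against 5.07 and 5.06 in the controls. The rise of 2.46 ± 0.20 (5.51-fold, adjusted p = 0.0281) lies mostly between 30 and 60 min; 1 of the 2 controls was above background. Slc41a1, of the same family, differed by -0.03 (adjusted p = 0.948). Slc40a1, ferroportin, the only known iron exporter, had 5.29, 4.94 and 4.73, against 5.88 and 6.01. It was already under both controls at 10 min, was not above background at 60 min, and fell at least 1.79-fold (adjusted p = 0.0288). Fibroblast and endothelial markers were also low on all 3 isoproterenol arrays. So were the 4 tested myoepithelial and smooth muscle markers (2 lower at 60 min), which summed to 538, 583 and 628, against 1090 and 880. The 4 tested leukocyte markers (1 lower at 60 min) summed to 578, 565 and 600 at 10, 30 and 60 min, against 1040 and 802 in the controls. Among them Cd3e, with controls not above background, went the other way at 10 and 60 min. It had 4.76, 4.48 and 5.11, against 4.51 and 4.5. The part of these cell types in the result was not tested.

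Slc48a1, a heme carrier of endosomes, had 4.63, 5.73 and 6.01, against 5.16 and 4.49, and its difference of 1.19 ± 0.33 did not pass (adjusted p = 0.0599). The copper carriers Slc31a1 (0.59, adjusted p = 0.0919) and Slc31a2 (0.50, adjusted p = 0.141) and the iron importer Slc11a2 (-0.44, adjusted p = 0.185) did not pass either.

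The 9 sugar and polyol carriers held 1 riser and 1 faller, both glucose transporters. Slc2a8, a glucose transporter that resides mostly on intracellular membranes, had 7.32, 8.77 and 9.63 at 10, 30 and 60 min, against 7.14 and 7.91 in the controls. Both later values lie above the controls, and the 60 min difference was 2.11 ± 0.36 (4.32-fold, adjusted p = 0.0288). Slc2a4, the insulin-responsive glucose transporter of muscle and fat, had 5.98, 6.94 and 5.16, against 7.06 and 6.33. It fell by 1.53 ± 0.35 at 60 min (2.90-fold, adjusted p = 0.0393), and the call was lost in 3 other settings, where adjusted p lay between 0.0509 and 0.0663. The order of the arrays in Slc2a4 follows the adipocyte marker sums on the isoproterenol arrays, highest at 30 min and lowest at 60 min, while muscle sums were highest at 30 min and in control 1; the part of either tissue was not tested. Against control 1 alone the difference was -1.90 and against control 2 alone -1.17.

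**Figure D2:**
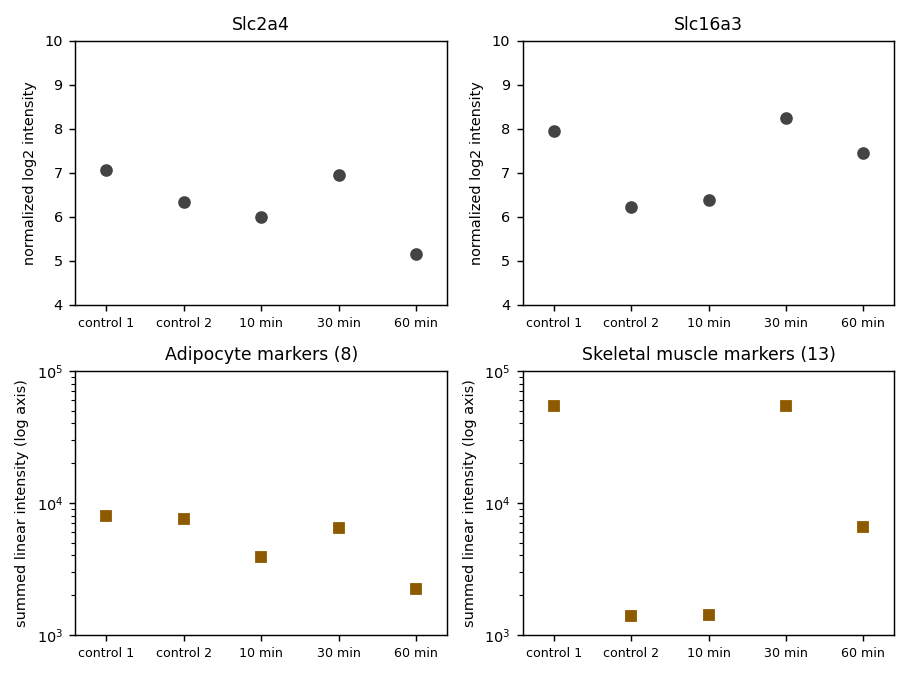
Upper panels give the normalized log2 intensity of Slc2a4 and Slc16a3 on each array; lower panels give the summed linear intensity of 8 adipocyte and 13 skeletal muscle markers on the same arrays (log axis). Slc16a3 and the muscle sum are both highest at 30 min and in control 1, and Slc2a4 and the adipocyte sum are both lowest at 60 min.

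The other sugar carriers did not pass. Slc37a4, which brings glucose 6-phosphate into the endoplasmic reticulum, differed by -0.76 (adjusted p = 0.0638). Slc50a1, a sugar carrier of the SWEET family, had 7.54, 7.91 and 8.51, against 7.77 and 7.84 in the controls, a difference of 0.71 (adjusted p = 0.0648). Slc5a11, a sodium-inositol cotransporter, had 9.82, 9.47 and 9.02, against 9.73 and 9.54, a difference of -0.62 (adjusted p = 0.0982). Each of these 3 passed in at least 1 other setting. Txnip, whose protein holds back glucose uptake, had 12.78, 12.38 and 11.75, against 13.36 and 12.84, and fell 2.55-fold at 60 min (adjusted p = 0.0347).

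None of the 3 nucleoside carriers passed at 60 min. Slc28a2, a concentrative carrier that takes up purine nucleosides with sodium, had 8.07, 8.54 and 9.03 at 10, 30 and 60 min, against 8.23 and 8.30 in the controls. Its difference of 0.76 ± 0.21 had an adjusted p of 0.0561 and passed in 5 other settings. Slc29a3, an equilibrative carrier of lysosomes, had 8.54, 8.06 and 7.59, against 8.57 and 8.27, a difference of -0.83 ± 0.24 (adjusted p = 0.0618) that also passed in 5 other settings. Slc29a1, the equilibrative carrier of the plasma membrane, had 9.14, 9.14 and 9.27, against 8.86 and 9.17, and differed by 0.26 (adjusted p = 0.461). Of the 3 measured genes of nucleoside use, Ada, Adk and Nt5e, none passed.

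The Slc35 family, which brings nucleotide sugars and related molecules into the Golgi and endoplasmic reticulum and includes several carriers with no settled substrate, had 3 of 14 members higher and 2 lower, with a median of 0.06. Slc35b2, which carries the sulfate donor PAPS into the Golgi, had 9.68, 9.11 and 8.65 at 10, 30 and 60 min, against 9.64 and 9.49 in the controls. It was under both controls from 30 min on and fell by 0.92 at 60 min (SE 0.21, 1.89-fold, adjusted p = 0.0399). Slc35e4 had 7.56, 6.93 and 6.07, against 7.34 and 7.6, and fell by 1.40 (2.63-fold, adjusted p = 0.0284). Slc35e3 had 6.69, 7.27 and 7.96, against 6.27 and 6.62, and rose by 1.52 ± 0.25 (2.86-fold, adjusted p = 0.0284). Thus the 2 measured Slc35e members went in opposite directions, each with an unbroken course over the 3 times.

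Slc35f6 had 7.73, 8.24 and 8.87, against 7.26 and 7.69 (2.63-fold higher at 60 min, adjusted p = 0.0303). Slc35g1 had 5.02, 5.93 and 6.45, against 4.88 and 5.19 (2.66-fold higher, adjusted p = 0.0287), with 1 control above background. Both climbed from each time to the next. Slc35b1, which exchanges ATP and ADP across the endoplasmic reticulum membrane, differed by 0.09 (adjusted p = 0.781) and by -0.01 without control 2, and Slc35f5 by 0.36 (adjusted p = 0.404). The carrier of CMP-sialic acid, Slc35a1, differed by 0.45 (adjusted p = 0.168).

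The largest group, carriers of organic anions, organic cations and monocarboxylates, had 5 of 20 members higher and 3 lower at 60 min and a median of 0.28 (0.06 without control 2). Slc16a1, the proton-linked carrier of lactate, pyruvate and ketone bodies, had 6.64, 7.21 and 9.92 at 10, 30 and 60 min, against 6.72 and 6.76 in the controls. The controls differ by 0.04, the 10 min array is just under them, and most of the change lies between 30 and 60 min. The 60 min difference of 3.18 ± 0.20 is 9.07-fold and exceeds that of every other member (adjusted p = 0.0281). Bsg, whose protein basigin escorts this carrier to the membrane, had 7.77, 8.35 and 8.86, against 7.79 and 7.96, and rose 1.97-fold (adjusted p = 0.0362). Emb, the other measured escort, was 1.80-fold lower and did not pass (adjusted p = 0.0746).

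Elsewhere in the Slc16 family, Slc16a6 had 7.18, 7.31 and 8.41, against 6.78 and 6.41, above both controls at every time, and rose by 1.81 ± 0.25 (3.51-fold, adjusted p = 0.0281). Slc16a11 had 7.33, 6.58 and 6.70, against 7.57 and 7.55, and fell by 0.86 at 60 min (SE 0.20, 1.82-fold, adjusted p = 0.0421); it is the only faller whose 30 min value lies below its 60 min value, and was named after its values were seen. Slc16a3, the lactate carrier typical of glycolytic muscle, had 6.38, 8.25 and 7.44, against 7.95 and 6.22. Its controls lie 1.73 apart, while those of every other member lie less than 1 apart, and its 60 min difference of 0.36 ± 0.71 did not pass (adjusted p = 0.74). High arrays of Slc16a3 are the arrays with high muscle markers, whose part was not tested; without control 2 the difference was -0.51 and without control 1 it was 1.22.

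Slc22a7, an organic anion carrier of liver and kidney, had 6.21, 6.97 and 8.12, against 5.78 and 6.05 in the controls, above both controls at every time, and rose by 2.21 ± 0.23 at 60 min (4.63-fold, adjusted p = 0.0281). Slc22a5, the sodium-dependent carnitine carrier, had 8.49, 7.83 and 7.77, against 8.61 and 8.62. Its fall of 0.84 (SE 0.20, 1.79-fold, adjusted p = 0.0437) was nearly complete at 30 min. Slc22a3, an organic cation carrier that also takes up monoamines, differed by -0.23 (adjusted p = 0.474).

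The SLCO carriers move bile salts, hormones and other large organic anions. Slco2b1 had 5.59, 5.67 and 4.69 at 10, 30 and 60 min, against 6.47 and 6.44, under both controls at every time. It was not above background at 60 min, so its fall is at least 2.54-fold (adjusted p = 0.0281); the fibroblast and endothelial marker sum was also low at every time and its part was not tested. Slco2a1, the prostaglandin carrier, had 4.55, 5.61 and 6.15, against 4.89 and 4.98 in controls that were not above background, a rise of at least 2.13-fold (adjusted p = 0.0288). Slco1a5 had 7.06, 7.43 and 8.49, against 6.89 and 7.21, and rose by 1.43 ± 0.24 (2.70-fold, adjusted p = 0.0287), most of it after 30 min. Among the genes of organic anion efflux, Abcc1, which pumps conjugates out of the cell, rose at least 1.79-fold (adjusted p = 0.03), and Abcc3 differed by less than its standard error.

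Among 16 carriers of vitamins, lipids and choline, 2 rose and none fell. Slc44a2, a choline transporter-like protein, had 6.54, 7.38 and 8.68 at 10, 30 and 60 min, against 5.64 and 6.60 in the controls. The controls lie 0.96 apart and the 10 min array falls between them; the 60 min difference was 2.56 ± 0.43 (5.89-fold, adjusted p = 0.0287), 2.08 against control 2 alone and 3.04 against control 1 alone. Slc23a2, the sodium-dependent carrier that brings vitamin C into most tissues, had 4.86, 5.90 and 7.0, against 4.70 and 5.36, and rose by 1.97 ± 0.33 (3.91-fold, adjusted p = 0.0287), with 1 control above background. Slc23a1, the epithelial vitamin C carrier, differed by -0.54 (adjusted p = 0.138). None of the 4 fatty acid transport proteins of the Slc27 family passed, among them Slc27a1 (-0.22, adjusted p = 0.509) and Slc27a3 (at least 1.11-fold lower, not above background at 60 min, adjusted p = 0.0597). Slc33a1, which brings acetyl-CoA into the endoplasmic reticulum, differed by 0.69 (adjusted p = 0.0827) and passed in 4 other settings.

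Carriers of peptides, amines and transmitters, with the amino acid carriers that the rule kept, had 2 of 18 members higher and 2 lower. Slc6a7, the high-affinity proline carrier of brain, had 6.81, 8.02 and 9.07, against 6.30 and 7.22 in the controls. The 10 min value lies between the controls and the later values above both; the 60 min difference was 2.31 ± 0.41 (4.95-fold, adjusted p = 0.0294). Slc17a9, which loads ATP into secretory vesicles, had 7.77, 7.85 and 8.22, against 6.95 and 7.27, above both controls from 10 min on, and rose by 1.11 ± 0.24 (2.15-fold, adjusted p = 0.0352). Its 10 min difference of 0.66 was the largest among the 22 risers, and no member passed the test at 10 min.

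Slc6a8, the creatine carrier, had 8.68, 8.35 and 7.41, against 8.65 and 8.32, within the controls at 30 min and below both at 60 min; it fell by 1.08 (SE 0.24, 2.12-fold, adjusted p = 0.0374). Slc6a6, the taurine carrier, had 6.08, 5.16 and 4.97, against 5.94 and 5.76, and fell at least 1.67-fold (adjusted p = 0.0456), not being above background at 60 min; this call was lost in 4 other settings, with adjusted p up to 0.109. Slc15a4, a lysosomal peptide and histidine carrier, differed by -0.20 (adjusted p = 0.511). None of the 4 members of the remaining families passed: Slc49a4 differed by -0.65 (adjusted p = 0.0798), Slc66a1 by 0.35 (0.284) and Slc66a2 by 0.15 (0.629), while Slc66a3 (0.119) was not above background at 60 min. Slc4a1ap, which meets the name rule but encodes a protein named after its binding to a carrier, differed by -0.56 (adjusted p = 0.351).

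**Figure D3:**
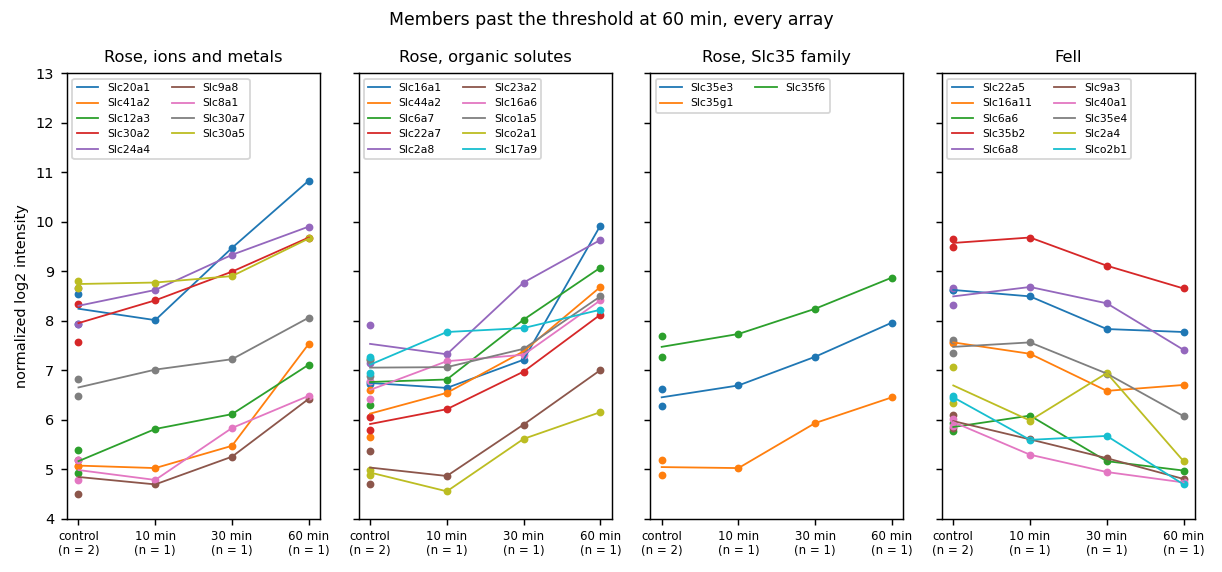
Normalized log2 intensity (y axis) of the 32 members past the threshold, on every array (x axis: 2 controls as separate points, then 1 rat each at 10, 30 and 60 min); lines join the control mean to the times. All 22 risers are above both controls at 30 min and highest at 60 min, and 9 of 10 fallers are lowest at 60 min.

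All 22 risers were above both controls at 30 min, with a median difference of 0.84, as were 1339 of all 1403 probes that rose, and all 22 had their 30 min value between the control mean and the 60 min value. At 10 min, 8 lay above both controls and 3 below both, with a median difference of 0.04. Courses differed: Slc16a1 and Slc41a2 gained most of their rise after 30 min, and Slc17a9 had 0.66 of its 1.11 at 10 min. Of the 10 fallers, 8 were under both controls at 30 min, with a median of -0.72, and 6 at 10 min, with a median of -0.18; over all 1231 probes that fell, 1149 and 678 were. Of all 1403 probes higher at 60 min, 96.9% had their 30 min value between the control mean and the 60 min value. The 60 min and 30 min differences share the same controls.

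The controls were not equal in the genes that rose. Of the 22 risers, 18 (81.8%) were higher in control 2 than in control 1, with a median difference of 0.38, and of all 1403 probes that rose 86.7% were. Among the 91 members that did not pass, 49.5% were higher in control 2. Of the 10 fallers, 3 were higher in control 2, against 28.8% of all probes that fell. All 22 risers had a 60 min value beyond every other array, as did 98.8% of all probes that rose, which choosing by the 60 min difference largely fixes.

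**Figure D4:**
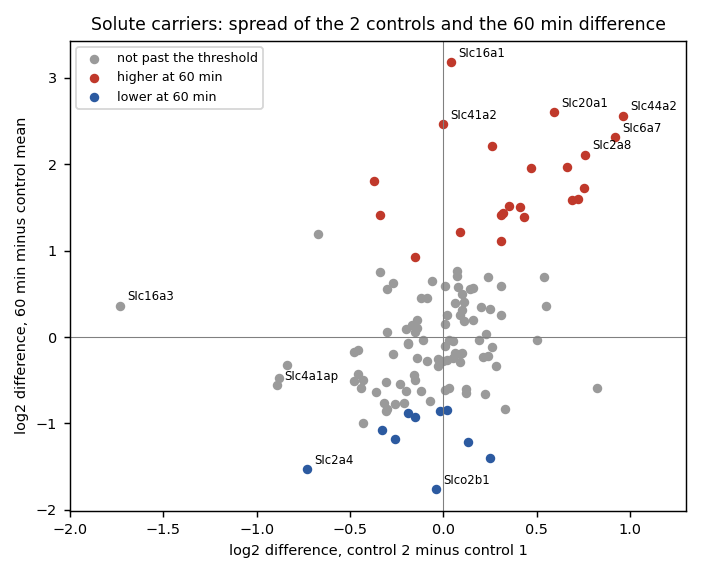
Each point is 1 of the 123 members: log2 difference of control 2 minus control 1 (x axis) and of 60 min minus the control mean (y axis). Most risers (red) lie right of 0, fallers (blue) lie mostly left of it, and Slc16a3 has the widest gap between controls, at -1.73.

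At 30 min no member passed the test, and 0% of all probes did in either direction (limma); 30 members and 2139 probes had an unadjusted p under 0.05, and the lowest adjusted p of a member was 0.207. By size alone, 8 members (6.5%) stood at least 2-fold above the control mean and outside both controls, against 4.26% of all tested probes: Slc2a8, Slc6a7, Slc16a3, Slc20a1, Slc22a7, Slc24a4, Slc30a2 and Slc44a2. All but Slc16a3 were among the 60 min risers. This count fell to 2 without control 1, to 3 with offset 50, and to 2 without background correction or with the authors' values. Slc40a1 was the only member (0.813%) that met the rule for lower values, against 2.48% of all probes; it was not above background at 30 min, so its difference there is known only as a bound of 1.82-fold. It no longer met the rule with offset 50, without background correction or with the authors' values. At 10 min, 0.0278% of all probes (3) were higher and 0% lower by the test, with no member among them and 8 members at an unadjusted p under 0.05. No member passed the size rule there, against 0.324% of probes higher and 1.86% lower. At 60 min the size rule held for 22 members higher (17.9%), against 11.9% of all probes, and 6 lower (4.88%), against 9.06%. Of the 6, 3 were not above background at 60 min, and the bounds of Slc9a3 and Slc40a1 lie under 2-fold; the 6 became 2 with offset 50 and 0 without background correction. As a scale for these sizes, 0.927% of probes were at least 2-fold higher in control 2 than in control 1 and 1.24% lower, with 0 members in the first set and Slc16a3 in the second.

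Tests that use all 3 isoproterenol rats, or that set times against each other, called nothing. The 3 isoproterenol rats against the 2 controls gave 0% of probes past the threshold (limma; 15 members and 1016 probes at an unadjusted p under 0.05, lowest adjusted p of a member 0.49). The F test over the 3 times gave 0% (37 members and 3325 probes unadjusted), and 60 min minus 10 min also 0% (43 members and 3599 probes unadjusted, lowest adjusted p 0.0588). The statement that carriers changed therefore rests on the 60 min rat set against the controls.

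Outside the carriers, 46 partner genes were listed, of which 28 were tested. At 60 min 5 of the 28 rose and 2 fell, with a median of -0.01. Over all tested probes, 13% were higher and 11.4% lower at that time, and the difference in shares was not tested. Of the partners that passed, Mt1, Bsg, Abcc1 and Txnip were given above. Sgk1, a kinase that regulates sodium carriers and channels, had 8.42, 10.27 and 10.41 at 10, 30 and 60 min, against 8.61 and 9.04 in the controls, and rose 3-fold (adjusted p = 0.0287), nearly all of it by 30 min. Ezr, whose protein ezrin anchors apical exchangers to the cytoskeleton, rose 2.49-fold (adjusted p = 0.0294). Kcnn4, a calcium-activated potassium channel of acinar cells, had 13.81, 13.49 and 12.48, against 13.81 and 13.85, and fell 2.55-fold (adjusted p = 0.0284). None of the 7 tested subunits and regulators of the sodium pump passed, and Aqp5, the apical water channel of acinar cells, differed from the controls by 1.13-fold (lower, adjusted p = 0.542).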

How the data were processed

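The authors deposited a linear probe intensity and a detection p-value (the fraction of negative controls that reach the probe's brightness) per array; per the labels, the hybridised material was biotinylated cRNA. The deposited intensity columns already had like quantiles (median spread 0.133% of the sorted values) and no background subtracted (smallest value 43.1). The authors' processed table, on a log2-like scale whose transform no source used here states, served as an alternative.

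Intensities were background-corrected by normexp from the detection p, with 16 added as offset, then quantile normalized and log2-transformed (neqc, limma 3.58.1, R 4.3.3). Probes with detection p under 0.01 on at least 1 array were tested with lmFit and eBayes, 1 mean per group (1 residual degree of freedom, 3.88 prior), two-sided, Benjamini-Hochberg over 10793 probes, threshold 0.05. A further fit compared the 3 isoproterenol rats with the 2 controls. P-values of the fits per time measure only the spread between these 2 control rats, moderated by the prior. They hold no spread among isoproterenol rats, which enters only the fit of the 3 rats against the 2 controls. The number of arrays (9095 to 9459 probes above background on each) limits precision. The size rule asks for 1 on the log2 scale from the control mean and a value outside both controls. A fold against a group not above background is a bound, set from the dimmest signals above background on each array.

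Members, role groups, partner genes and markers were chosen with earlier results of these data known. Named are members past a threshold, within each role group up to 4 with the largest 60 min difference and the 2 with the brightest probe, members past the size rule at 10 or 30 min, the fluid secretion carriers, and partners past the threshold; a few others are given to complete a family. All 123 symbols matched the RefSeq table (GRCr8); the array's build was not given, so positions are those of the RefSeq promoters. The fit was tested on simulated data.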

Additional observations from a re-analysis of the deposited data

How the results depend on the processing

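The counts at 60 min, 22 members higher and 10 lower, became 0 and 0 without the filter on dim probes (0 of 22517 probes by limma, with 71 of 245 carrier probes at an unadjusted p under 0.05). In the 8 other tested settings they ran from 17 to 26 higher and from 9 to 15 lower; 29 of the 32 calls were lost in none of these 8, although 9 of the 29 were not tested when detection on all 5 arrays was asked, an alternative chosen after seeing the data. The 3 lost calls were Slc9a3 (authors' values), Slc2a4 (offset 50, no background correction, authors' values) and Slc6a6 (the same 3 and an intensity trend).

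The size rule depended on the dim end of the scale. Its 6 members lower at 60 min became 2 with offset 50, 0 without background correction, 0 on the authors' values and 3 with detection on all 5 arrays, where the 22 higher became 14. Its 8 members higher at 30 min became 3 with offset 50, 2 without background correction and 2 on the authors' values, and ran from 2 to 11 when 1 control was left out (2 without control 1). The 1 lower at 30 min became 0 in each of offset 50, no background correction, the authors' values and detection on all 5 arrays. The 0 lower at 10 min ran from 0 to 3 when 1 control was left out (3 without control 2).

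The median over all members at 10 min (0.05) became 0.02 without the filter and 0.11 with detection on all 5 arrays. At 30 min (0.10) it became 0.04 with offset 50, 0.05 without background correction, 0.04 on the authors' values, 0.02 without the filter, 0.08 with detection on at least 2 arrays and 0.06 to 0.07 without 1 control. At 60 min (-0.04) it became 0.01 without the filter and -0.02 to 0.02 without 1 control. Reversed without control 2 were Slc16a3 at 60 min (-0.51, and 1.22 without control 1) and Slc35b1 (-0.01, and 0.19 without control 1). The causes were not tested. Without a control the fits per time have no residual degrees of freedom and give values only; the comparison of all isoproterenol rats kept a count of 0 whichever rat was left out. Of the rows for named members, 596 counted as the same, 39 no longer passed, 38 newly passed, 2 moved and 2 reversed. Tested rows counted as the same when they kept direction and side of the threshold. Rows with 1 control left out have no test. They counted as the same when they kept direction and shifted by less than the standard deviation of the 2 controls. Leaving out 1 of 2 controls largely fixes that outcome, so these rows are no measure of stability. No paired analysis was possible because each time has 1 rat and the labels pair no rats. Near the floor of 5.03 to 5.11, signal over background limits the folds.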
